A study of Arabidopsis thaliana with 6 samples.

Results

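Plant defensins and thionins are small, secreted peptides held in shape by disulphide bonds between their cysteines, and many of them damage the membranes of fungi and bacteria. Some are made at a steady level in healthy tissue, and others are switched on by wounding or infection. In Arabidopsis, *PDF1.2* is a standard marker of the joint jasmonate and ethylene response, and *THI2.1* is induced through jasmonate. F-box proteins pick the targets of SCF ubiquitin ligases. The product of *FBP7* is one of them, and the jasmonate receptor COI1 is another.

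The members were the probe sets paired with exactly 1 of 8 listed genes, and each gene had 1 such probe set, so that 8 of the 13350 genes with a probe set of their own were described. There were 5 defensin genes, namely *PDF1.2* (AT5G44420), *PDF1.4* (AT1G19610), *PDF2.1* (AT2G02120), *PDF2.5* (AT5G63660) and *LCR68* (AT2G02130, also called *PDF2.3*). The 3 thionin genes were *THI2.1* (AT1G72260), *THI2.2* (AT5G36910) and AT1G66100, which the annotation used here names by its locus alone and which was counted with the thionins. The genes were chosen by their family, with their measured change in signal between wild type and mutant already known. These changes are therefore given as a description, with no p-value, and nothing is read from how many of them were called.

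RNA came from whole seedlings grown in the light for 5 days, in the No-0 (Nossen) background shared by both groups. The wild type group held 3 samples and the *fbp7-3* group, mutant in *FBP7*, held 3 more, with 1 ATH1 array per sample. The labels give no other allele and no treatment, and they do not say whether the samples of a group were grown separately, so the spread between them may be technical. The annotation used pairs no probe set with *FBP7*, so its level did not serve as a check of the labels. Values are signals in arbitrary units scaled by the authors to the same overall level on each array. Array by array, the 25th percentile was 39.2 to 49.7 and the median 188.7 to 200.7. Signals of different probe sets were not read as levels of one gene against another, because each probe set has its own response. Bright and dim refer to signal alone. Where signals of listed markers are summed, the brightest probe sets weigh most in the sum.

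**Figure D1:**
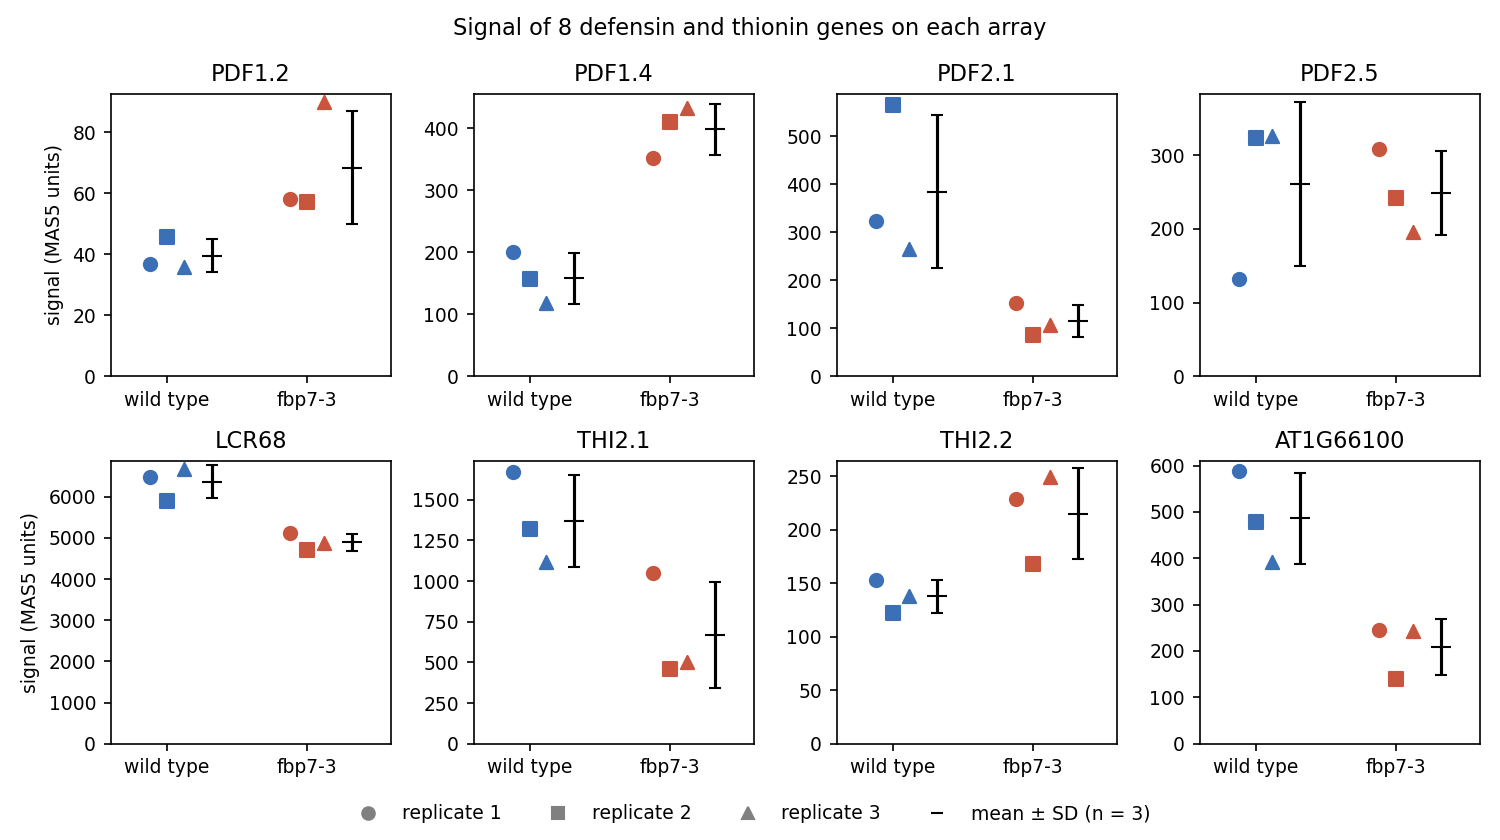
Signal (MAS5 units, linear axis from 0) of the 8 genes on each of the 6 arrays, wild type in blue and *fbp7-3* in red, with the replicate number as the marker and the group mean ± SD (n = 3) in black. The groups overlap for *PDF2.5* and for none of the other 7 genes.

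*PDF1.4* and *PDF2.1* were the defensin genes whose signals differed most between the groups, and they went opposite ways. *PDF1.4* was higher in the mutant, 2.52-fold in mean signal, and *PDF2.1* was lower, with a mean in the wild type 3.34 times that in the mutant. Both thionin genes with an appreciably lower signal in the mutant, AT1G66100 and *THI2.1*, stood at 2.33 and 2.04 times the mutant mean in the wild type. *PDF1.2* and *THI2.2* had higher means in the mutant, 1.73-fold and 1.56-fold, *LCR68* had a lower one and *PDF2.5* had about the same mean in both groups. On the log2(signal + 16) scale, 4 of the 8 changes lay above 0 and 4 below, with a median of −0.18, against a median of −0.00 over all 17059 probe sets tested.

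With limma across all of these probe sets and a Benjamini-Hochberg adjusted p under 0.05, 1.06% were called, 0.522% higher and 0.533% lower in the mutant. The calls included 4 of the 8 members, *PDF1.4* among the rises and *PDF2.1*, *THI2.1* and AT1G66100 among the falls. None of the 4 was called when limma fitted variances with no intensity trend, where 6 probe sets were called in all, or with an RNA quality index as a covariate, where 24 were. Groups did not overlap for 3 of the 8 on the higher side in the mutant, as for 8.45% of all probe sets tested, and for 4 on the lower side, as for 8.56%. All 8 passed the filter that left out the dimmest 25% of probe sets. Because the contrast was known when the genes were listed, these counts describe the choice. The ranks by size and the calls under the alternatives given below reuse the same arrays. They too are description and add no independent support.

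Among the defensins of the first group, *PDF1.2* was dim. Its signal was 36.7, 45.7 and 36.0 in wild type replicates 1, 2 and 3, and 58.3, 57.1 and 90.0 in mutant replicates 1, 2 and 3. Each mutant value lay above each wild type value, but the wild type values were close to the 25th percentile of their arrays, where MAS5 signals are noisy. The log2 change was 0.59 ± 0.31 (SE, n = 3 per group), which was not called. Leaving out mutant replicate 3, the brightest array for this gene, gave 0.41. That array also had the highest 25th percentile over all probe sets, 49.7. Whether this bears on its value for *PDF1.2* was not tested. *PDF1.2* has close copies, *PDF1.2b* and *PDF1.2c*, and hybridisation of their transcripts to its probe set was not separated, so its signal is uncertain as a measure of 1 gene.

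*PDF1.4* belongs by name to the same group of defensins. It had signals of 200.1, 156.3 and 117.7 in wild type seedlings and 352.5, 410.5 and 432.9 in the mutant, replicates 1 to 3 in each case. The lowest mutant array exceeded the highest wild type array by a clear margin. The means were 158 ± 41.2 (SD, n = 3) and 399 ± 41.5, and the log2 change was 1.27 ± 0.18. By size, this was number 48 of 17059 changes in either direction. Set against the wild type mean, the 3 mutant arrays stood at 1.11, 1.32 and 1.39 on the log2 scale. *PDF1.4* was called in all 6 fits with an array left out, where its change reached at most 1.44, without wild type replicate 1.

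*PDF2.1*, of the second group of plant defensins, had signals of 324.2, 565.4 and 264.5 in wild type seedlings and 152.0, 86.9 and 106.3 in the mutant. Wild type replicate 2 stood well above the other wild type arrays, and no mutant array reached the lowest of them. The means were 385 ± 159 and 115 ± 33.4, and the log2 change of −1.57 ± 0.25 was number 24 by size. Without wild type replicate 2 the change was −1.27, and it was called in every one of the 6 fits with an array left out.

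*PDF2.5*, a further gene of the second group, did not separate the genotypes. Its signals were 132.3, 324.2 and 325.9 in wild type seedlings and 309.2, 241.5 and 196.1 in the mutant. Wild type replicate 1 was the lowest of all 6 arrays, and the other 2 wild type arrays were the highest, so the mutant arrays lay inside the wild type range. The log2 change was 0.01 ± 0.27, from means of 261 ± 111 and 249 ± 56.9. Its sign turned with the array left out, from −0.39 without wild type replicate 1 to 0.22 without wild type replicate 3.

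*LCR68* was bright and its arrays lay close together. It had signals of 6493.2, 5910.1 and 6685.5 in wild type seedlings and 5116.4, 4701.6 and 4882.7 in the mutant. The groups did not overlap, and the means were 6363 ± 404 and 4900 ± 208. The log2 change was small, −0.37 ± 0.09, and was not called, although it was called after quantile normalization (−0.41). Over all alternatives it stayed between −0.43 and −0.34.

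*PDF2.1* and *LCR68* are next to each other on chromosome 2 by gene order in TAIR10.1. *LCR69* (AT2G02100, also called *PDF2.2*), a defensin gene that was not a member, lies on the other side of *PDF2.1*, 3 genes away. Its signals were 13157.7, 10758.0 and 13388.2 in wild type seedlings and 12710.4, 11745.5 and 11564.4 in the mutant. These groups overlapped, and the log2 change was −0.04 ± 0.10, with a range from −0.15 to 0.01 over the alternatives. In their order on the chromosome, *LCR69*, *PDF2.1* and *LCR68* thus had changes of −0.04, −1.57 and −0.37. *LCR72* (AT2G02140, also called *PDF2.6*), 4 genes beyond *PDF2.1*, was too dim to be tested, at 18.7 ± 8.45 in wild type seedlings and 25.5 ± 3.65 in the mutant. Whether transcripts of one of these related genes hybridise to the probe set of another was not tested.

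**Figure D2:**
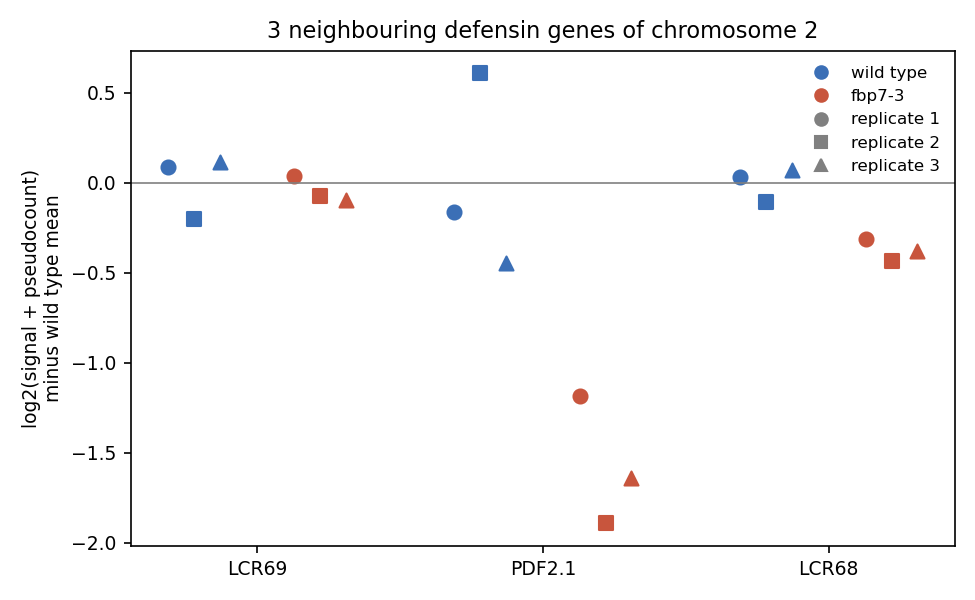
Log2(signal + 16) minus the wild type mean (log2 units) of *LCR69*, *PDF2.1* and *LCR68*, placed in their order on chromosome 2, for the 3 wild type arrays in blue and the 3 *fbp7-3* arrays in red. The mutant arrays of *PDF2.1* lie between −1.89 and −1.18, those of *LCR68* between −0.43 and −0.31, and those of *LCR69* within the range of the wild type.

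Among the thionins, *THI2.1* had signals of 1671.6, 1319.6 and 1116.4 in wild type seedlings and 1046.8, 460.7 and 501.9 in the mutant. Mutant replicate 1 came close to wild type replicate 3, whereas mutant replicates 2 and 3 were less bright by a wide margin. The means were 1369 ± 281 and 670 ± 327, and the log2 change was −1.09 ± 0.23, number 80 by size. It was called in 2 of the 6 fits without 1 array, those without mutant replicate 1 (−1.46) and without wild type replicate 3 (−1.23). It was not called without mutant replicate 2 (−0.88), mutant replicate 3, wild type replicate 1 or wild type replicate 2.

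AT1G66100 had signals of 587.4, 477.7 and 392.6 in wild type seedlings and 244.2, 138.7 and 242.7 in the mutant. No mutant array reached a wild type array, and mutant replicate 2 was the lowest of all. The means were 486 ± 97.7 and 209 ± 60.5, and the log2 change of −1.18 ± 0.20 was number 61 by size. It was called in 5 of the 6 fits without 1 array and not called without wild type replicate 1 (−1.04).

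*THI2.2*, a thionin gene related to *THI2.1*, lay the other way. Its signals were 152.6, 122.2 and 138.2 in wild type seedlings and 228.8, 167.6 and 249.0 in the mutant, so that the groups did not overlap. The means were 138 ± 15.2 and 215 ± 42.4, and the log2 change of 0.58 ± 0.19 was not called. It stayed above 0 in every alternative in which the gene was tested, between 0.31 and 0.73.

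**Figure D3:**
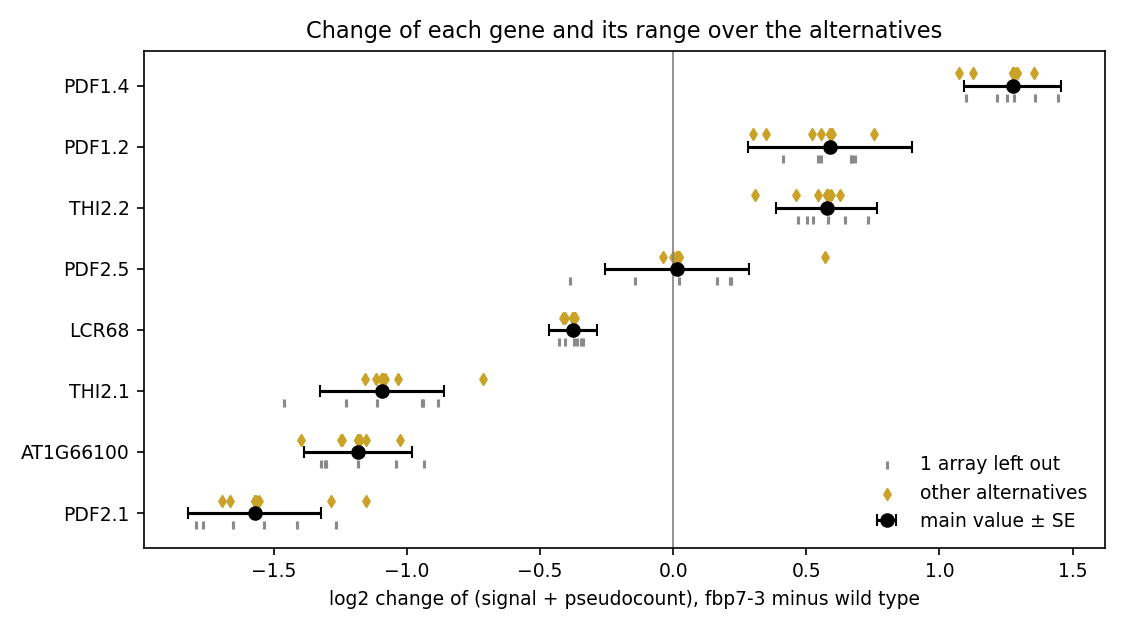
Log2 change of signal + 16 (mutant minus wild type) of the 8 genes, with the main value ± SE as a black point, the 6 values without 1 array as grey ticks and the other alternatives as yellow diamonds. All values of *PDF1.4* lie above 1 and all of *PDF2.1* below −1, and those of *PDF2.5* fall on both sides of 0.

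The spread between arrays of one group is also given as a description, since the calls known when the genes were chosen depend in part on it. Over all probe sets tested, the within-group SD had a median of 0.95 times the SD that limma's trend fitted for a probe set of that signal. *THI2.1* had a within-group SD of 0.494 on the log2 scale, 3.51 times the fitted 0.141, a ratio reached by 0.205% of the probe sets tested. For *PDF2.5* the ratio was 2.61, reached by 0.856%, for *PDF2.1* 2.09, reached by 2.69%, and for AT1G66100 1.94, reached by 4.02%. At the other end, *LCR68* had a ratio of 0.65 and *PDF1.2* one of 0.56. *PDF1.4* (1.31) and *THI2.2* (0.93) lay between. The moderated SEs given above draw the spread of each gene towards the fitted one, so those of *THI2.1*, *PDF2.5*, *PDF2.1*, AT1G66100 and, to a lesser degree, *PDF1.4* are smaller than their own arrays alone would give.

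**Figure D4:**
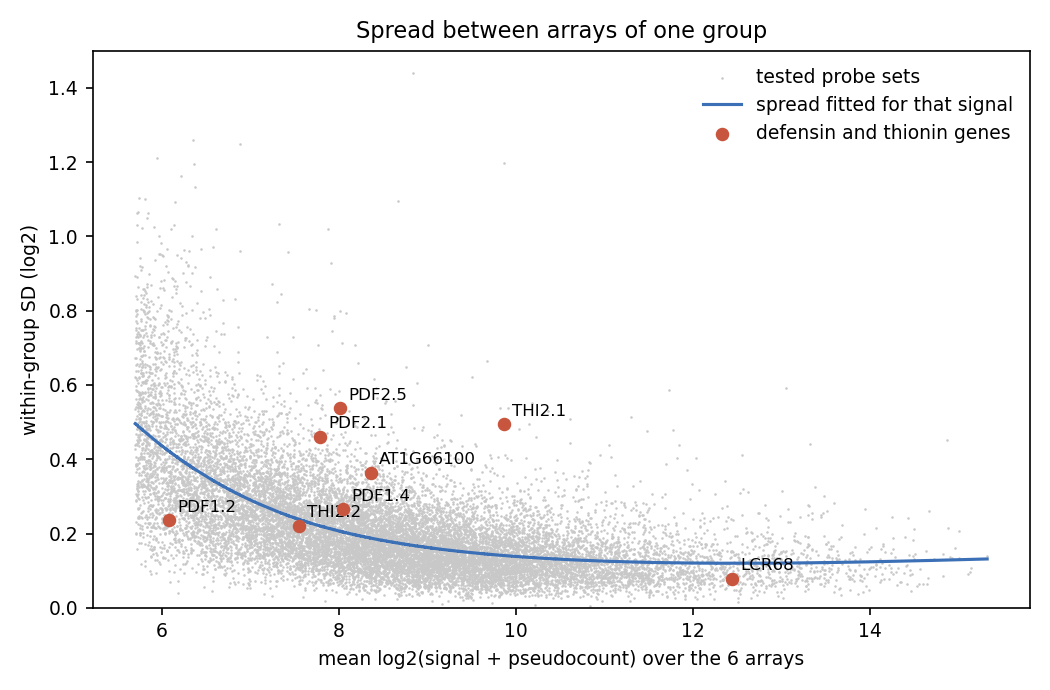
Within-group SD (log2 units) against mean log2(signal + 16) over the 6 arrays for the 17059 tested probe sets in grey, except 1 above the axis limit of 1.5, with the fitted trend in blue and the 8 genes in red. *THI2.1*, *PDF2.5*, *PDF2.1* and AT1G66100 lie well above the trend, and *LCR68* and *PDF1.2* below it.

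The members also differed in how they varied within the groups. Each gene was centred on its group means, and the deviations were correlated over the 6 arrays, which share their scaling and leave few independent values, so that the figures are descriptive. Of 28 pairs, 18 had a positive r, with a median of 0.21 over all 28, and 4 exceeded 0.5. The 4 were *THI2.2* with AT1G66100, *THI2.1* with AT1G66100, *LCR68* with *THI2.2* (0.64) and *PDF2.1* with *THI2.1*. Among the thionin genes r was 0.84 between *THI2.2* and AT1G66100, 0.67 between *THI2.1* and AT1G66100, and 0.42 between *THI2.1* and *THI2.2*. Between the groups these genes differed in direction, since *THI2.2* lay higher in the mutant and the other 2 lower. *LCR68* also had a positive r with each thionin gene, 0.42 with *THI2.1*, 0.64 with *THI2.2* and 0.29 with AT1G66100. A positive r was thus not particular to pairs of thionins. For *PDF2.1* and *PDF1.4* r with each thionin gene was above 0 as well, but in part barely so. It was 0.02 for *PDF2.1* with *THI2.2* and 0.04 for *PDF1.4* with *THI2.1*. How often other pairs of probe sets reach such values was not counted. *PDF2.1* had an r of 0.54 with *THI2.1* and of −0.40 with its neighbour *LCR68*. The lowest value was −0.87, between *PDF1.4* and *PDF2.5*.

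**Figure D5:**
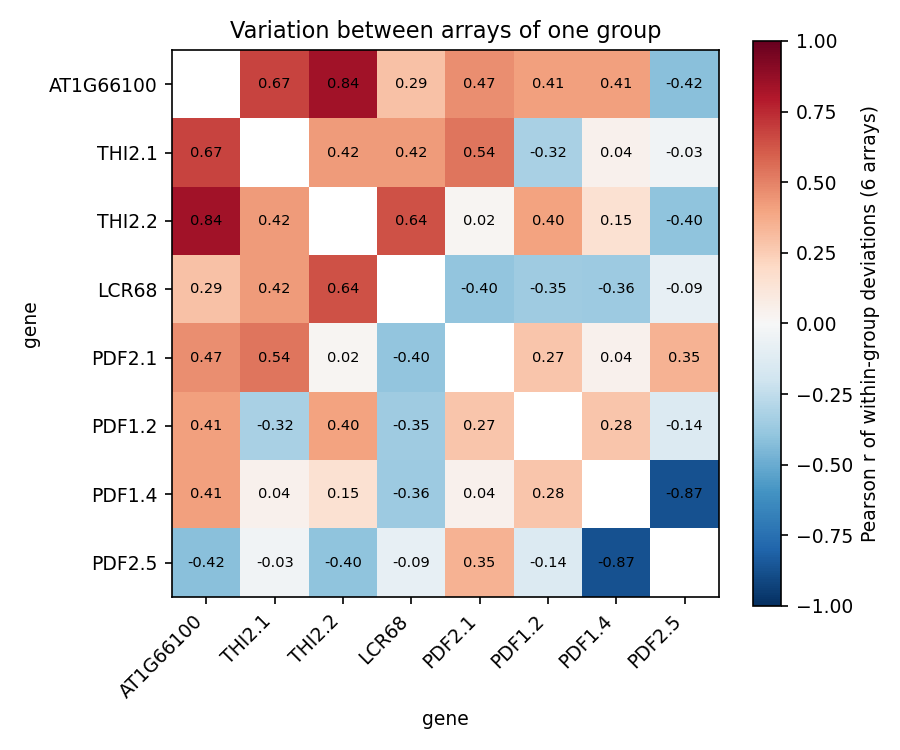
Pearson r of the deviations from group means (log2 scale, 6 arrays) for each pair of the 8 genes, from blue (−1) to red (1). The 3 thionin genes, at the top left, have positive values with each other, and *PDF1.4* with *PDF2.5* has the lowest value, −0.87.

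Counted over the 8 genes, mutant replicate 2 was the lowest mutant array for 6 of the 8 genes and the highest for 0, and mutant replicate 1 was the highest for 5. Among the wild type arrays, replicate 3 was the lowest for 5 of the 8 and replicate 1 the highest for 4. These orders were not counted over all probe sets, so whether they are particular to the members was not tested.

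The gene whose log2 signal followed each member most closely was sought among 9437 probe sets with 1 named gene. For *PDF1.4* it was *XTH16*, which encodes a xyloglucan endotransglucosylase/hydrolase of the cell wall (r = 0.994 over the 6 arrays, 0.95 for deviations within the groups). *XTH16* had a signal of 302 ± 32.2 in wild type seedlings and 484 ± 25 in the mutant. The closest genes to the other members were AT5G46230 for *PDF2.1* (r = 0.989), AT3G03320 for *THI2.1* (0.994) and AT4G33500 for AT1G66100 (0.995). For *THI2.2* it was AT1G79970 (0.991), for *PDF1.2* AT4G00295 (0.993), for *LCR68* AT5G08180 (0.997) and for *PDF2.5* AT3G25260 (0.993). No gene came up for more than 1 member. With 6 arrays and this many candidates a high r was to be had for each member, and the values rank the candidates and do no more.

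Of 92 genes that the RefSeq annotation names as PDF, LCR or THI genes, 15 had a probe set of their own here, 7 of them members and 8 not. AT1G66100 carries no such name. Of these other 8, *LCR69* was tested, and the remaining 7 fell below the filter. These were *PDF1.2b*, *LCR24*, *LCR59*, *LCR66*, *LCR67* (also called *PDF1.1*), *LCR72* and *LCR80*. Their signals ran from 1.1 to 63.2 over the 6 arrays and overlapped between the groups for each gene. *PDF1.2b*, the close copy of *PDF1.2*, read 8.7, 36.7 and 13.4 in wild type seedlings and 9.7, 63.2 and 9.3 in the mutant, an order that differs from that of *PDF1.2*. Its probe set was too dim to be tested and hybridisation of other transcripts to it was not separated, so nothing is read from this order.

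Few genes of the jasmonate, ethylene and salicylate pathways had a probe set of their own in the annotation used. Of 41 listed genes of jasmonate synthesis and signalling 3 were tested, with 0 called and a median log2 change of −0.20. *MYC3*, a transcription factor of the jasmonate response, went from 406 ± 37.7 to 334 ± 52.1 (log2 change −0.28 ± 0.15, limma adjusted p = 0.483). *OPCL1*, a ligase of jasmonate synthesis, was at −0.20 ± 0.14 (limma adjusted p = 0.635), and *MYC4*, related to *MYC3*, at 0.11 ± 0.15. Of 26 ethylene genes 1 was tested, *EIN3*, the transcription factor at the end of the ethylene pathway, at 0.24 ± 0.10 (limma adjusted p = 0.338). Of 21 salicylate and immune genes 3 were tested, with 0 called and a median of −0.03. *SAG101*, which acts with EDS1 in immunity, was at 0.24 ± 0.25, and *WRKY53* at −0.03 ± 0.21. At an unadjusted limma p under 0.05 *EIN3* alone of these 7 passed. None of 14 listed lipid-transfer and GASA peptide genes was paired with a probe set of its own.

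Markers of tissue were read beside these genes, in lists chosen with earlier results known. The 4 of 15 listed root and root hair markers that were measured all had log2 changes below 0 with 0 called, and their summed signal was 594.3 to 1028.9 in wild type seedlings and 526.4 to 652.2 in the mutant, so that the groups overlapped. The peroxidase genes AT3G49960 and AT4G26010 had the smallest p of these, with log2 changes of −0.75 ± 0.25 (limma adjusted p = 0.218) and −0.39 ± 0.21. Of 17 seed and embryo markers 3 were measured and 2 tested, both below 0. *M17* was at −2.02 ± 0.43 (limma adjusted p = 0.0372), with signals of 612 ± 550 in wild type seedlings and 105 ± 24.0 in the mutant. It lost its call in 8 of 17 alternatives. *ICL* was at −1.05 ± 0.42 (limma adjusted p = 0.325). Summed with the untested *M10*, their signal was 291.1 to 1645.2 in wild type seedlings and 166.8 to 280.8 in the mutant. Both measured green tissue markers, the light-harvesting genes *LHCB4.1* and *LHCB4.2*, were bright, with sums of 24993.4 to 27287.7 and 28014.6 to 35598.4 and 0 called. Their log2 changes were 0.24 ± 0.10 and 0.32 ± 0.12. No measured marker was listed at 0. In whole seedlings, fewer cells of a type and less RNA per cell cannot be told apart, and the part of these markers in the members' changes was not tested.

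An index of RNA quality, the log2 ratio of 3′ to 5′ signal averaged over the control probe sets for actin, GAPDH and ubiquitin, was 0.878 to 0.998 in wild type seedlings and 1.07 to 1.33 in the mutant. With this index as a covariate the log2 change was 1.13 ± 0.29 for *PDF1.4*, −1.15 ± 0.37 for *PDF2.1*, −0.71 ± 0.35 for *THI2.1* and −1.40 ± 0.32 for AT1G66100, and none of the 4 was called. *PDF1.2* was then at 0.30 ± 0.47, *THI2.2* at 0.31 ± 0.29, *LCR68* at −0.41 ± 0.15 and *PDF2.5* at 0.57 ± 0.39. Within the groups, r with the index ran from −0.54 for *PDF2.5* to 0.64 for *PDF1.2* and *THI2.2*. Because the index did not overlap between the groups, index and genotype cannot be told apart by this design.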

How the data were processed

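Each of 6 samples was measured on 1 Affymetrix ATH1 array, per the labels. The deposited intensities are MAS5 signals according to the submitters' processing notes, with the version not given in the sources used here. The values (0.1 to 46363.1) had a 2% trimmed mean of 500, as the average over the 6 arrays. Genes came from the platform annotation: of 22746 probe sets without 64 controls, 13513 had 1 gene, 503 several and 8730 none listed. Of the 13513, 13436 were found in RefSeq (TAIR10.1).

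From these intensities, log2(signal + 16) was computed. The lowest 25% of probe sets by mean were left out, and 17059 were fitted in limma 3.58.1 (R 4.3.3; eBayes with trend, 4 residual and 10.4 prior degrees of freedom). Group was the single term, with Benjamini-Hochberg adjustment. Simulations on the 17059 probe sets drew independent normal noise at limma's moderated variances, with 200 probe sets changed. In them, 36.5% of log2 changes of 0.5 and 84% of 1 were recovered, and 6.6% of calls were false. The full spread of genes above the fitted trend, such as *THI2.1*, and the RNA quality difference between the groups were not modelled. Precision is limited by the number of arrays. Alternatives were pseudocounts of 1 and 64, other filters, normalizations and variance models, a replicate block, an RNA quality covariate and each array left out. Figures used matplotlib 3.10.9.

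Members and lists were chosen with earlier results of these data known. Named genes were the 8 members, the single most correlated gene of each, all other PDF, LCR and THI genes, and the 2 members of each list with the smallest p (others after their values were seen).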

Additional observations from a re-analysis of the deposited data

Results flagged for a closer look

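The RNA quality index lies outside the gene comparison and is listed because its 3 values in *fbp7-3* all exceeded its 3 values in the wild type. On the log2 scale, the mutant mean was 1.17 ± 0.14 (SD, n = 3) and the wild type mean 0.955 ± 0.067.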

How the results depend on the processing

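The calls over all probe sets, 180, came to 6 without the intensity trend, 24 with the RNA quality covariate and 75 without the filter, and to between 74 and 248 without 1 array (81 without wild type replicate 1, 115 without wild type replicate 2, 89 and 74 without mutant replicates 2 and 3). Of the 8 defensin and thionin genes 4 were called, but 0 without the trend, 0 with the covariate, 2 without the filter, and 2 to 4 without 1 array (2 without wild type replicate 1). *PDF1.4* and *PDF2.1* were called in 15 of 17 alternatives, AT1G66100 in 13 and *THI2.1* in 8. Of the listed pathway and marker genes 1 was called, *M17*, and 0 without the trend, without the filter, with the covariate or with robust eBayes, and 0 to 1 without 1 array. Of 134 member values under the alternatives, 130 lay within 1 within-group SD of the main value. That SD is each gene's own, so the margin was wider for genes with a wide spread, such as *THI2.1* and *PDF2.5*. The other 4 values were those of *PDF1.2*, *PDF2.5* and *THI2.2* with the covariate and *PDF1.2* with a pseudocount of 64 (0.35). No called member changed sign. Same-numbered arrays did not deviate together over the probe sets tested (r −0.005, −0.025 and −0.032). The labels do not say whether the numbers pair the samples, and these r cannot settle it. With the replicate number as a block, 211 probe sets and 4 of the members were called. Under the 50% filter *PDF1.2* and *THI2.2* were not tested. Signals near the 25th percentile, as for *PDF1.2*, limit what can be told of dim genes.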
